A study of Rattus norvegicus with 4 samples.

Results

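Pitx1, Pitx3, Lhx3, Lhx4, Six3, Six6 and Isl1 are 7 homeodomain transcription factor genes of the rat pituitary. They were chosen by name, and all 7 were found by their symbols among the 30058 genes of a single-cell RNA sequencing table of the anterior lobe. Among the 9 cell types compared, Six3 was highest in folliculostellate cells (FSC), at 118.9 UMIs per 1000000 against at most 11.9 in the 5 hormone-producing cell (HPC) types of the anterior lobe, and Six6 was highest in lactotrophs. Of the 338 Pitx3 UMIs in the cells used, 326 were in gonadotrophs. Isl1 was highest in thyrotrophs, gonadotrophs and FSC, and Pitx1 was present in all 6 pituitary cell types. Melanotrophs and posterior lobe cells, with 137 and 198 Six3 UMIs per 1000000, were set aside and entered no comparison.

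Homeodomain proteins bind DNA through a helical fold and are deployed in sequence as the oral ectoderm folds into Rathke's pouch and its cells take up hormone production. The PITX factors act from the oral ectoderm onwards and also bind the promoters of hormone genes. LHX3, LHX4 and ISL1 carry LIM domains, which bind cofactors such as LDB1, and are needed for the pouch to grow and for its cell types to form. SIX3 and SIX6 are factors of forebrain, eye and pituitary, and proteins of this family work with DACH, EYA and Groucho family proteins.

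Dispersed cells of Sprague Dawley rats were run on 4 droplet lanes with a 3′ tag chemistry that counts transcripts as unique molecular identifiers (UMIs). The female lanes came from a single pool of 4 glands taken at postnatal day 44 in diestrus, and the male lanes from a single pool of 4 glands taken at postnatal day 59. The lanes also hold different numbers of male-specific transcripts, as labelled (10 and 9 UMIs of 2 Y-linked genes in female lanes, 2049 and 2114 in male lanes). The 2 lanes of a sex are technical replicates of 1 pool, so tests of sex measure the spread between lanes only, and sex cannot be told apart from pool and age.

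The table held 7861 cells and 86742346 UMIs, with 18955509 to 24048021 UMIs per lane and lane medians of 7971 to 9413 UMIs per cell, and 6848 cells were used, 3304 female and 3544 male. Marker genes, none of them a member, set 9 types: 2314 FSC, 792 corticotrophs (C), 238 gonadotrophs (G), 85 thyrotrophs (T), 1892 somatotrophs (S), 486 lactotrophs (L), 547 leukocytes (Le), 133 endothelial cells (EC) and 361 erythrocytes (E). The 4 FSC markers S100b, Fxyd1, Gstm2 and Capn6 had a UMI in 89.7% to 95.7% of FSC and in 3.31% to 5.56% of other cells. Avpr1b, a corticotroph receptor, had a UMI in 90.8% of C and 3.22% of other cells, Gnrhr in 95.8% of G and 1.33%, Trhr in 43.5% of T and 1.12%, Ghrhr in 38.6% of S and 0.0605%, and Agtr1b in 67.1% of L and 0.251%. Gh1, the growth hormone gene, had a UMI in 100% of the cells outside S, so a UMI of an abundant secretory transcript does not by itself place a cell. Of 7831 barcode sequences, 30 were found in more than 1 lane. Levels are UMIs per 1000000 UMIs of a cell type (CPM), and lane values are always given in the order of the female lanes of 1868 and 1861 cells and the male lanes of 2047 and 2085 cells.

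**Figure D1:**
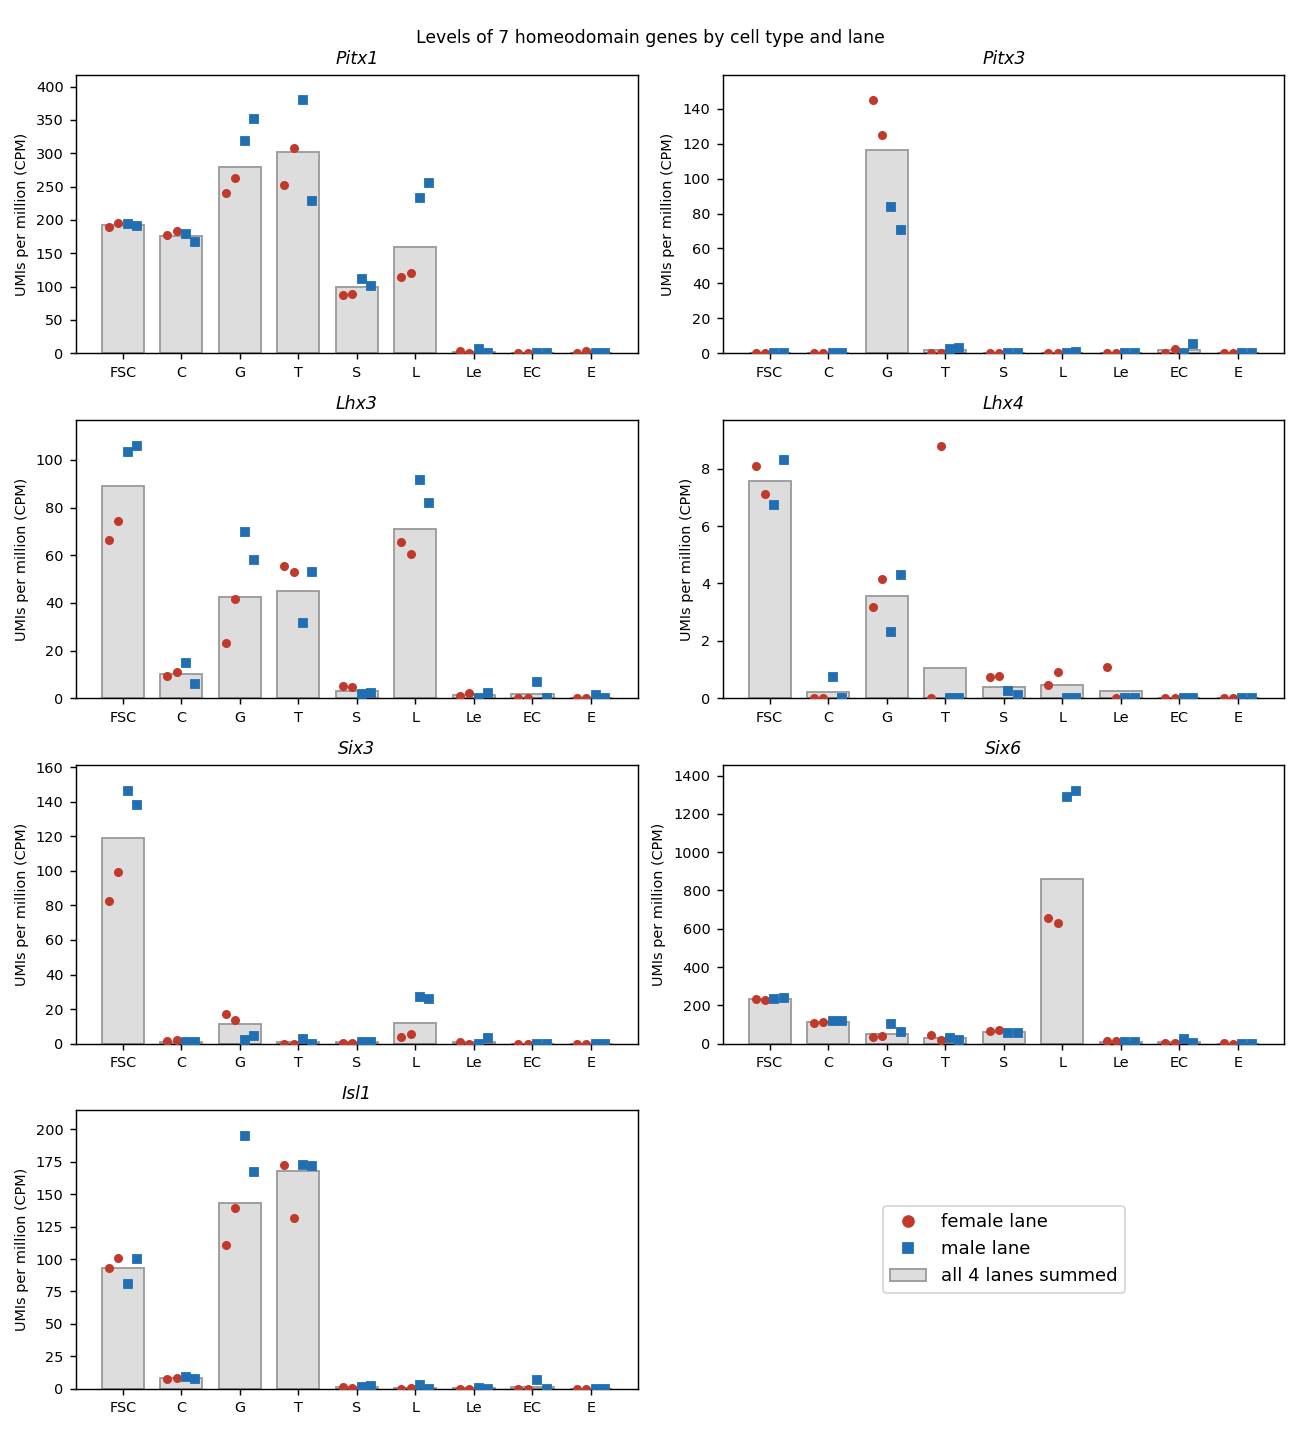
Level of each gene (vertical axis, UMIs per 1000000) in 9 cell types (horizontal axis), with grey bars for the 4 lanes summed, circles for female lanes and squares for male lanes. Six3 stands highest in FSC (119 CPM), Six6 in L (860 CPM), Pitx3 in G (116 CPM) and Isl1 in T (167 CPM), while Pitx1 lies between 99.0 and 301 CPM in all 6 pituitary types and at most 2.70 CPM in Le, EC and E.

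Pitx1, Lhx3, Six6 and Isl1 were higher on the mean of the pituitary types than on the mean of Le and EC. In the comparison of the mean of the 6 pituitary types with the mean of Le and EC, 4 of the 7 genes were called higher and none lower (edgeR quasi-likelihood test on UMI sums per type and pool, adjusted p below 0.001 over 13601 genes), where 29.7% of all genes tested were called. Pitx1 had the largest difference, 9.21 ± 0.33 on the log2 scale (adjusted p = 1.88e-11). All such values here are the estimate ± an approximate standard error, the size of the estimate over the square root of the test's F statistic. This error was not fitted directly and is unreliable where a type has 0 or few UMIs. Pitx1 had no UMI in 133 EC, which allows a share of cells with a UMI of up to 2.26% (3 cells of 133). The fitted fold thus rests partly on a count of 0. Set directly against that count, Pitx1 in S, its lowest pituitary type, was at least 38.1-fold higher than in EC (floor of 3 UMIs over the type, 2.60 CPM) and 36.6-fold higher than in Le. Lhx3 (4.18 ± 0.48, adjusted p = 2.35e-06), Six6 (3.55 ± 0.27, adjusted p = 2.36e-08) and Isl1 (4.50 ± 0.54, adjusted p = 3.63e-06) were also called. Six3, at 4.59 ± 1.82 (adjusted p = 0.0443), Lhx4, at 3.42 ± 1.97 (adjusted p = 0.16), and Pitx3, at 1.89 ± 1.75 (adjusted p = 0.395), were not. The mean does not hold for Isl1 in each pituitary type. Isl1 had 0.634 CPM in L and 1.44 CPM in S, against 1.73 CPM in EC (2 UMIs) and 0.270 CPM in Le (1 UMI).

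Between FSC and the mean of the HPC types the balance lay with FSC. FSC are the S100b-positive, non-endocrine cells of the lobe. In HPC over FSC, the mean of the 5 HPC types against FSC, 4 of the 7 genes were called and all 4 were lower in HPC, against 26.3% of all genes tested in both directions, 17.2% of all genes being lower. Six3 differed most, at -5.14 ± 0.35 (adjusted p = 1.59e-08), then Lhx4 (-3.10 ± 0.53, adjusted p = 0.00018), Isl1 (-2.75 ± 0.20, adjusted p = 1.26e-08) and Lhx3 (-1.66 ± 0.23, adjusted p = 1.81e-05). The mean does not hold for each HPC type. For Isl1, FSC over G was -0.78 ± 0.25 and FSC over T -0.87 ± 0.27. For Lhx3, FSC over L was -0.30 ± 0.31, and none of these was past the limit. The Lhx4 call was lost with DESeq2 (adjusted p = 0.00131). Lhx4 had 65 and 78 UMIs in the female and male FSC sums and at most 8 in any HPC sum. It passed the filter on low counts through FSC, so its call is counted but not read as support. Six6 lay just outside the limit at -0.94 ± 0.21 (adjusted p = 0.00136) and came inside it without the lane of 1868 (0.000783), 1861 (0.000636) or 2047 cells (3.88e-05). Pitx1 had 0.27 ± 0.15 (adjusted p = 0.158) and Pitx3 had 2.17 ± 0.97 (adjusted p = 0.0782). For Pitx1 the sign depends on the scaling: with library size alone its value was -0.021, and that scaling moved the median of all genes from -0.09 to -0.40.

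Six3 and Six6 are close paralogues whose highest types among the 9 compared differed, FSC for Six3 and lactotrophs (L) for Six6, and their promoters are shown so that the shared and unshared parts can be seen. The stretches are the RefSeq promoters of the rat build GRCr8, 250 bases before to 50 after the annotated start, whereas the reads were counted on Rnor6, and they were chosen after the levels were seen. The capitals mark the longest stretch that the 2 windows share on either strand.
Six3, chr6:14796207-14796506, minus strand: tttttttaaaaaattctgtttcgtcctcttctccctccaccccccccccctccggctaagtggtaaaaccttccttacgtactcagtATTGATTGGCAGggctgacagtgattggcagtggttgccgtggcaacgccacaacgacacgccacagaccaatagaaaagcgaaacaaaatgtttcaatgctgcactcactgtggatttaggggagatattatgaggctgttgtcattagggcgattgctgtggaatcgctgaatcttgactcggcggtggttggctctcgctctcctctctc
Six6, chr6:97370185-97370484, plus strand: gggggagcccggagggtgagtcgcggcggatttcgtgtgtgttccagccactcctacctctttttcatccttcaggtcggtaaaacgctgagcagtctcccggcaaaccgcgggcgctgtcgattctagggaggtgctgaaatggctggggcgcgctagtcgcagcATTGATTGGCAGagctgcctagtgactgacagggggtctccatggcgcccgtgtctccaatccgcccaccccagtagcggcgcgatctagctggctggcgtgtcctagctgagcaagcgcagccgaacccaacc
The shared 12 bases, ATTGATTGGCAG, are bases 88 to 99 of the Six3 window and 167 to 178 of the Six6 window, and occur in 5 of 33469 rat promoters of the same length (0.0149%). They hold the letters ATTGG, the reverse complement of the CCAAT box, which itself is in 37.5% of all promoters on either strand and in 3 of the 6 member promoters (Pitx1 has no entry in the table). TAATCC, the core that PITX type homeodomains bind, was in 0 of the 6 windows and 7.17% of all promoters, and TAATTA in 0 of 6 and 5.36%. Other pairs of member windows shared stretches of up to 11 bases, the longest being that of Six3 and Lhx4, found in 18 promoters. These matches describe the letters of the windows only.

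Six3, which in mammals keeps forebrain and eye identity, was highest in FSC among the 9 types compared, with a small second level in L and G. The posterior lobe cells and melanotrophs set aside, nearly all male, had 198 and 137 CPM, next to 119 CPM in all FSC. In FSC, Six3 had 99.4 and 82.7 CPM in the female lanes and 146 and 138 CPM in the male lanes. A UMI was found in 44.3% of FSC (95% exact binomial interval 42.2% to 46.3%, counting error only). The lowest FSC lane stood above the highest lane of any HPC type. In L it had 5.62, 3.82, 27.2 and 25.6 CPM, with a UMI in 12.6% of cells. In G it had 13.5, 16.9, 2.32 and 4.29 CPM, with a UMI in 7.98% of cells. In L the male lanes lay above the female lanes and in G below them, and the summed levels of 11.9 and 11.4 CPM did not differ beyond error (log2 difference 0.50 ± 0.61, adjusted p = 0.638). FSC over L was past the limit (2.65 ± 0.47, adjusted p = 0.000371, 18.1% of genes called).

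In C, T and S, Six3 had 11, 1 and 19 UMIs, or 1.18, 1.047 and 0.72 CPM. The shares of cells with a UMI were 1.26% in C, 1.18% in T and 0.899% in S at medians of 11480, 10344 and 13643 UMIs per cell. In Le the share was 0.548% (interval 0.113% to 1.59%) at a median of 6494, where 4 UMIs were found. Whether the values of C, T and S are background was not tested. In FSC there were 4.005 Six3 UMIs per 100 UMIs of the 4 FSC markers. The ratio was 4.59 in S, 5.71 in Le, 7.14 in T and 7.59 in C, but 49.2 in G and 54.7 in L. That of T rests on 1 Six3 UMI and 14 FSC marker UMIs and is uncertain. Of L with a Six3 UMI, 16.4% also had an FSC marker UMI, and of L without, 15.3%. In G these shares were 26.3% of 19 cells with a Six3 UMI and 17.8% of 219 without, at medians of 15350 and 9724 UMIs per cell. The part of free RNA in these levels was not tested.

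**Figure D2:**
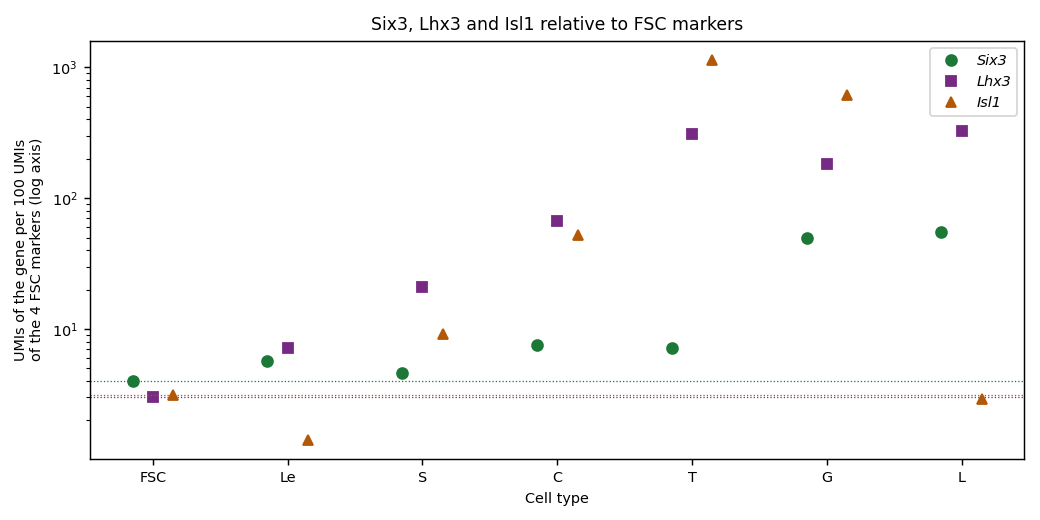
UMIs of Six3, Lhx3 and Isl1 per 100 UMIs of the 4 FSC markers (vertical log axis) in 7 cell types (horizontal axis), with dotted lines at the FSC values of 4.005, 2.998 and 3.14. Six3 stays near its line in Le, S and C and rises to 49.2 in G and 54.7 in L, whereas Isl1 lies at 2.92 in L and 1143 in T. All points of T rest on 14 FSC marker UMIs, and that of Six3 on 1 Six3 UMI.

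Six6, the close relative of Six3, was found in every pituitary type, with L far above the rest. In L it had 632, 653, 1287 and 1321 CPM and a UMI in 99.2% of cells. FSC had 229, 234, 233 and 240 CPM, C 111, 107, 119 and 119 CPM, S 73.2, 67.0, 55.2 and 53.5 CPM, G 37.4, 34.9, 102 and 60.0 CPM, and T 17.6, 43.2, 31.8 and 16.5 CPM. The lanes of L, FSC, C and S did not overlap in that order, whereas G overlapped S and T. The share of cells with a UMI fell from 77.6% in FSC to 65.3% in C, 52.5% in S, 37.4% in G and 21.2% in T. It was 6.40% in Le, 4.51% in EC and 0.277% in E. Whether the values of Le and EC are background was not tested. After each cell was thinned to 2000 UMIs the shares were 80.9% in L, 36.0% in FSC, 19.7% in C, 13.0% in G, 10.6% in S, 4.71% in T and 1.83% in Le.

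Of the neighbours in that order, L over FSC was past the limit (log2 difference 2.50 ± 0.28, adjusted p = 4.72e-06) and the others were not, from FSC over C (0.85 ± 0.27, adjusted p = 0.0196) to G over T (1.02 ± 0.41, adjusted p = 0.212). Against the mean of the other 5 pituitary types, L was 3.93 ± 0.18 higher (adjusted p = 8.07e-10) and T 2.67 lower on the log2 scale (-2.67 ± 0.35, adjusted p = 0.000175). G, at -1.45 ± 0.27 (adjusted p = 0.00137), missed the limit, and passed it without the lane of 1868 (0.000909) or 2047 cells (6.54e-05) and with DESeq2 (1.57e-05). Prl had a UMI in 92.4% of the cells outside L. Six6 was not in a fixed ratio to it, with 0.319 Six6 UMIs per 100 Prl UMIs in L, against 1.06 in Le, 8.39 in S, 18.4 in C and 30.6 in FSC. The part of free RNA in the Six6 levels was not tested.

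Among the LIM homeodomain genes, Isl1, a factor of the ventral pouch, was high in T (132, 173, 172 and 172 CPM), in G (139, 111, 195 and 167 CPM) and in FSC (101, 93.3, 80.6 and 99.8 CPM), low in C (8.44, 7.55, 9.13 and 7.48 CPM), and near nothing in S (0.581, 1.29, 1.71 and 1.82 CPM) and L (0.469, 0, 2.72 and 0 CPM). T and G overlapped, both lay above FSC, and FSC lay above C in every lane. A UMI was found in 75.3% of T, 69.7% of G, 44.7% of FSC and 6.82% of C, but in 1.43% of S and 0.823% of L (interval 0.225% to 2.09%), compared with 0.183% of Le (interval 0.00463% to 1.01%).

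Against the other 5 types, Isl1 was higher in T (3.79 ± 0.23, adjusted p = 1.43e-07) and G (3.69 ± 0.20, adjusted p = 6.47e-09) and lower in L (-5.10 ± 0.45, adjusted p = 1.27e-06) and S (-3.86 ± 0.41, adjusted p = 7.83e-06). In C it had -1.27 ± 0.31 (adjusted p = 0.00675), outside the limit. As neighbours in level, T and G did not differ beyond error (0.09 ± 0.27, adjusted p = 0.954), nor did G and FSC at this limit (0.78 ± 0.25, adjusted p = 0.0212), whereas FSC over C (3.35 ± 0.29, adjusted p = 2.22e-07, 21.3% of genes called) and C over S (2.16 ± 0.35, adjusted p = 0.000383, 6.82% called) were past it. In C there were 52.4 Isl1 UMIs per 100 FSC marker UMIs, and in L 2.92, next to 3.14 in FSC. The value of L rests on 4 Isl1 UMIs and is uncertain, and the part of free RNA in it was not tested.

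Lhx3, needed for the growth of Rathke's pouch and for most of its lineages, was broad but uneven. FSC had 74.4, 66.3, 103 and 106 CPM, L 60.5, 65.5, 91.7 and 81.8 CPM, T 52.8, 55.5, 31.8 and 52.9 CPM, and G 41.6, 23.2, 69.6 and 57.9 CPM. C had 11.3, 9.43, 14.97 and 5.98 CPM, and S 4.84, 5.17, 1.97 and 2.31 CPM. The first 4 types overlapped in part, C lay below them all, and S lay below C. The shares of cells with a UMI were 51.2% in L, 41.2% in FSC, 35.3% in T, 33.2% in G, 10.4% in C and 3.96% in S, against 0.914% in Le (interval 0.297% to 2.12%). Thinned to 2000 UMIs per cell, they were 15.2% in L, 15.5% in FSC, 7.06% in T, 8.82% in G, 2.02% in C and 0.846% in S. The lead of L over FSC in shares was thus not kept at equal depth.

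No pair of neighbours in the Lhx3 order was past the limit, G over C coming nearest (2.05 ± 0.39, adjusted p = 0.00171). FSC stood first by CPM, but on the TMM scale of the test FSC over L was -0.30 ± 0.31 (adjusted p = 0.486), so the order of FSC and L depends on the scale. Against the other 5 types, L was 2.02 ± 0.24 higher (adjusted p = 2.61e-05), S lower (-3.23 ± 0.33, adjusted p = 6.81e-06) and C lower (-1.78 ± 0.31, adjusted p = 0.000649). The call in C was lost without the male lane of 2085 cells (adjusted p = 0.00364) and with library size alone (adjusted p = 0.00188). Lhx3 UMIs per 100 FSC marker UMIs were 2.998 in FSC, 21.01 in S, 66.9 in C, 183 in G, 307 in T and 326 in L. The value of T rests on 14 FSC marker UMIs and is uncertain.

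Lhx4, the paralogue of Lhx3, was scarce in all cells, with 143 UMIs in FSC, 10 in G and at most 11 in any other pituitary type. The FSC lanes had 7.10, 8.09, 6.73 and 8.28 CPM, close to each other, and 5.66% of FSC had a UMI (interval 4.75% to 6.68%). G had 4.16, 3.17, 2.32 and 4.29 CPM, below each FSC lane, but FSC over G was within error (1.07 ± 0.75, adjusted p = 0.297). The other pituitary types lay at or below 1.047 CPM, that is at 1 to 11 UMIs, and their order could not be told at this depth.

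Pitx1 was the common gene of the set. T had 308, 253, 379 and 228 CPM, G 263, 241, 318 and 352 CPM, FSC 196, 190, 193 and 191 CPM, C 183, 178, 180 and 166 CPM, L 121, 115, 233 and 255.5 CPM, and S 89.3, 88.0, 111 and 101 CPM. Within FSC and within C the 4 lanes lay close together, in L the male lanes lay above the female lanes, and S was lowest in each lane. A UMI was found in 68.2% of S and in 73.0% to 87.4% of the other pituitary types. In S over the other 5 types Pitx1 had -0.79 ± 0.16 (adjusted p = 0.00263), and in G 0.57 ± 0.15 (adjusted p = 0.0196), both outside the limit, and no pair of neighbours in its order was past it.

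Pitx3, best known from midbrain dopamine neurons and the lens, was a gonadotroph gene here. G had 125, 145, 83.5 and 70.7 CPM and a UMI in 61.8% of cells (interval 55.3% to 68.0%), with 326 UMIs in 238 cells. FSC had 4 UMIs, T and S 2 each, C and L 1 each and EC 2, with at most 3.31 CPM in any lane of a pituitary type. G over the other 5 types was 8.42 ± 0.36 (adjusted p = 1.29e-09), and G over T, the next type in order with 2 UMIs, was 5.56 ± 0.72 (adjusted p = 0.000451), in a contrast of 2 types that share the glycoprotein hormone alpha subunit Cga and in which 0.647% of genes were called. The sizes of these folds thus rest on a few UMIs outside G. The female and male G sums had 257 and 69 UMIs, and any other sum at most 2. Pitx3 therefore passed the filter on low counts through G, and its calls are counted but not read as support.

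By type, the counts of members called against the other 5 types were 1 of 7 in C (Lhx3 lower, 7.05% of genes called), 2 of 7 in G (Pitx3 and Isl1 higher, 4.01%), 2 of 7 in T (Isl1 higher, Six6 lower, 1.15%), 2 of 7 in S (Lhx3 and Isl1 lower, 5.48%) and 3 of 7 in L (Six6 and Lhx3 higher, Isl1 lower, 3.93%). Over the 7 genes, 5 of 35 pairs of neighbours in level were past the limit, all 5 of them given above. The Pitx3 calls in these counts carry the limit given above, that Pitx3 passed the filter through G. Over the 15 pairs of types, 0.647% to 25.3% of all genes were called.

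**Figure D3:**
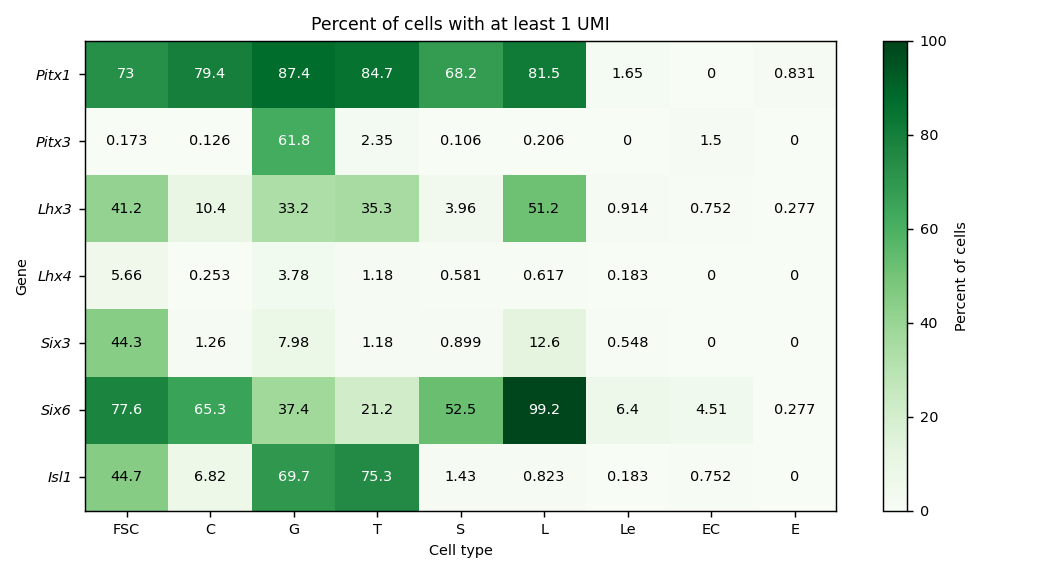
Percent of cells with at least 1 UMI (colour and printed value) for each of the 7 genes (rows) in 9 cell types (columns), at each cell's own depth. Read by column, L pairs Six6 (99.2%) with Lhx3 (51.2%) and lacks Isl1 (0.823%), while T and G pair Pitx1 with Isl1 (75.3% and 69.7%). FSC hold all of these genes, with Lhx3 in 41.2% and Isl1 in 44.7% of cells.

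The genes were read together in the same cells. G had a mean of 3.01 of the 7 genes with a UMI per cell, FSC 2.87, L 2.46, T 2.21, C 1.64 and S 1.28, against 0.0987 in Le, 0.0752 in EC and 0.0139 in E. Thinned to 2000 UMIs, L had 1.30, FSC 1.20, G 1.09, T 0.706, C 0.530 and S 0.298. No L lacked all 7 at full depth, and 15.8% of S did. The shares of cells with both genes of a pair are set beside the product of their single shares. Pitx1 and Lhx3 shared 32.5% of FSC where the product of their shares is 30.1%, Pitx1 and Isl1 shared 62.6% of G against 61.0%, Pitx1 and Pitx3 54.6% of G against 54.0%, and Lhx3 and Six6 51.2% of L against 50.8%. Lhx3 and Lhx4 shared 3.24% of FSC against 2.33%, a ratio of 1.39, with a median of 8378 UMIs in those cells and 6898 in all FSC. In the 59 posterior lobe cells set aside, Pitx1 and Isl1 shared 18.6% against 5.52%, Lhx3 and Six6 15.3% against 5.37%, and Pitx1 and Lhx3 13.6% against 5.06%, from 11, 9 and 8 cells. Doublets and outliers were not removed from those 59 cells. Their FSC markers summed to 1600 CPM, against 2970 CPM in FSC, and the part of mixed cells in these shares was not tested.

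FSC fell into a large cluster led by Gpha2 (1574 cells), a smaller cluster led by Fam46b, Epcam and Cldn3 (690 cells), called the Epcam cluster here, a cluster of 33 cells led by cell cycle genes and a cluster of 17 cells led by Tppp3. The 7 genes were left out of the clustering, but the same cells were clustered, so the values are a description. The Epcam cluster had more Lhx3 (123 against 70.6 CPM), Six3 (157 against 96.0 CPM), Isl1 (116 against 83.4 CPM) and Pitx1 (219 against 176 CPM) than the Gpha2 cluster, and less Six6 (204 against 253 CPM). The lanes of the 2 clusters did not overlap for Pitx1, Lhx3, Isl1 and Six6. For Six3 the male lanes of the Gpha2 cluster, 110 and 118 CPM, reached the lower female lane of the Epcam cluster, 103 CPM. Lhx4 had 6.74 and 9.60 CPM, with overlapping lanes.

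**Figure D4:**
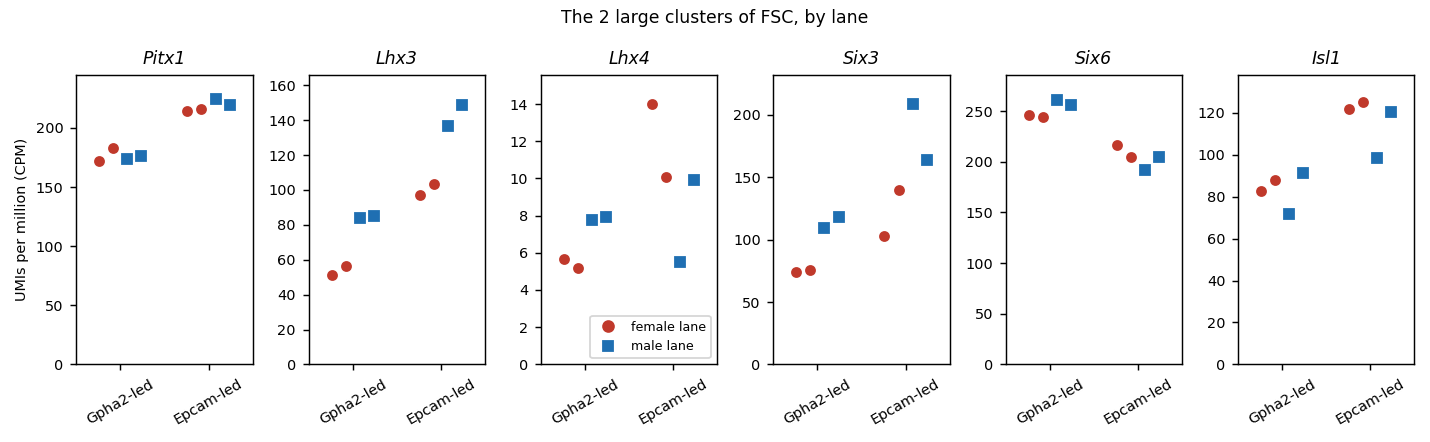
Level (vertical axes, UMIs per 1000000) of 6 of the genes in the Gpha2-led and Epcam-led clusters of FSC (horizontal axes), 1 point per lane, circles female and squares male. Pitx1, Lhx3, Six3 and Isl1 lie higher in the Epcam-led cluster and Six6 lower, and within each cluster the male lanes of Lhx3 and Six3 lie above the female lanes.

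Members were also read in proliferating FSC and S, which held 35 and 27 of them. A cell was called proliferating when 14 or more of 39 cell cycle genes passed their thresholds, and of 102 such cells 35 were FSC, and these had 244 CPM of Pitx1 (exact Poisson interval 202 to 292), 129 CPM of Six3 (99.4 to 165), 113 of Lhx3 (85.1 to 147), 248 of Six6 (206 to 297) and 65.7 of Isl1 (44.9 to 92.7), next to 191, 119, 88.4, 234 and 93.9 CPM in the other 2279 FSC. The Pitx1 interval lies above that of the other FSC (185 to 198), whereas the Isl1 interval overlaps theirs (89.5 to 98.4). The 27 proliferating S had 120 CPM of Pitx1 and 127 of Six6 (96.1 to 165), 1 Isl1 UMI and no UMI of Lhx3 or Six3, which allows up to 8.38 CPM (exact Poisson), above the 3.35 and 0.731 CPM of the other S. The Six6 interval lies above the 59.5 CPM of the 1865 other S. The intervals cover counting error only, and cells were not replicated by animal.

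Sex was compared within each type, 2 male against 2 female lanes. FSC had more Six3 and Lhx3 in males: 2 of 6 genes tested were called, where 2.93% of genes were called. Six3 was 0.61 ± 0.08 higher (adjusted p = 9.76e-05) and Lhx3 0.53 ± 0.08 higher (adjusted p = 0.000277) on the log2 scale. Male lanes also lay above female lanes within the FSC clusters: Six3 had 75.4 and 74.0 against 110 and 118 CPM in the Gpha2 cluster and 140 and 103 against 208 and 164 CPM in the Epcam cluster, and Lhx3 had 56.7 and 51.5 against 84.2 and 85.1 CPM and 103 and 97.2 against 136 and 149 CPM. Pitx1 (-0.04 ± 0.06), Six6 (-0.01 ± 0.06), Isl1 (-0.14 ± 0.09) and Lhx4 (-0.06 ± 0.24) were not called, with adjusted p from 0.383 to 0.957.

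Both FSC calls were lost without the female lane of 1868 cells (adjusted p 0.00864 and 0.0189 for Six3 and Lhx3, edgeR) or without that of 1861 cells (0.0227 and 0.034), where a group is left with a single lane assumed to vary like the others, and Lhx3 also without the male lane of 2085 cells (0.00302). With DESeq2 the Lhx3 call was lost (adjusted p = 0.00877), and without the filter on low counts both were (0.0292 for Six3, 0.0247 for Lhx3). At a finer resolution the Gpha2 cluster fell into groups of 536, 527 and 506 cells, of which 58.8%, 6.26% and 87.8% were female. Markers of other cells moved with sex in FSC, in both directions. The 4 HPC markers summed to 145, 134, 415 and 212 CPM, and the 4 G markers to 583, 452, 1607 and 2562 CPM. The lists of C, T and S were also higher in the male lanes. The 2 L markers went the other way, at 1229, 1440, 320 and 270 CPM. The FSC markers themselves had 2913, 3174, 2894 and 2916 CPM. The posterior lobe list shares S100b with them and had 1227, 1395, 1122 and 1179 CPM, with Lhx2, Nkx2-1 and Gfap at 0 in all lanes. Posterior lobe cells were set aside by that list, S100b included, before FSC were set. These zeros follow in part from that rule and do not show whether posterior lobe cells remain among FSC. In the lane of 1868 cells S100b was the only gene of that list with a UMI, so its sum is not separate from that of the FSC markers. In G itself, where Six3 had 11.4 CPM, the HPC markers summed to 19419 CPM. The part of HPC transcripts in the result was not tested.

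**Figure D5:**
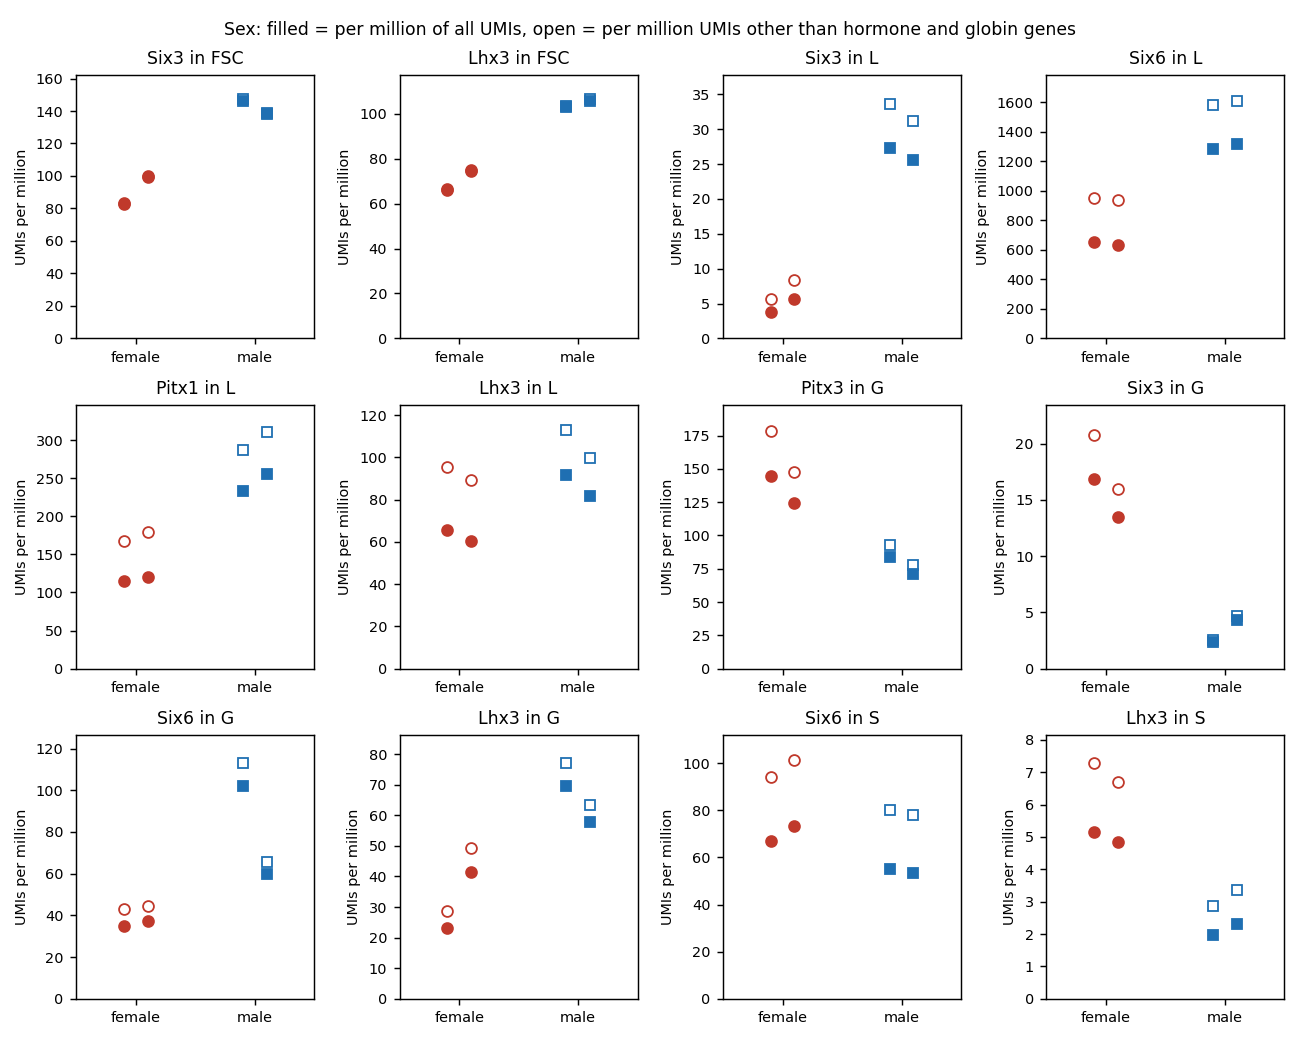
Lane values (vertical axes, UMIs per 1000000) of 12 combinations of gene and type in female (circles) and male (squares) lanes, filled for all UMIs and open for UMIs other than those of hormone and globin genes. For all UMIs, male lanes lie above female lanes for Six3 and Lhx3 in FSC, for Six3, Six6, Pitx1 and Lhx3 in L and for Six6 and Lhx3 in G. They lie below female lanes for Pitx3 and Six3 in G and for Six6 and Lhx3 in S. With library size alone the median gene of L was also higher in males, by 0.67 (log2), and the sign for Lhx3 in L depends on the scaling.

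In L the scale matters, since Prl, the prolactin gene, took 32.0% and 31.02% of UMIs in female lanes and 18.3% and 17.4% in male lanes, and the median L had 16170 and 20500 UMIs in female and 7581 and 6676 UMIs in male lanes. The plain CPM of Six6 was 632 and 653 in females and 1287 and 1321 in males, a log2 difference of 1.03 with library size alone, but on that scale the median gene of L was also higher in males, by 0.67. On the TMM scale, where the median gene moved by 0.02, Six6 was 0.37 ± 0.06 higher in male L (adjusted p = 7.07e-06) and Six3 1.82 ± 0.36 higher (adjusted p = 5.2e-05), 2 of 4 genes tested, where 17.6% of genes were called. Pitx1 was 0.40 ± 0.11 higher without a call (adjusted p = 0.00213). Lhx3 had -0.18 ± 0.15 (adjusted p = 0.366), and 0.47 with library size alone, so no direction is given for it. The Six3 call was lost without the female lane of 1861 cells (adjusted p = 0.00143), without the male lane of 2047 cells (adjusted p = 0.00134) and with DESeq2 (adjusted p = 0.0226). That male lane also had more FSC marker UMIs in L, 63.6 CPM against 12.7, 14.3 and 10.2 CPM in the others, while the other male lane had 25.6 CPM of Six3 at 10.2 CPM of FSC markers.

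In G no member was called among 5 tested (edgeR, 3 at an unadjusted p below 0.05, 0 with DESeq2), where 4.44% of genes were. Pitx3 was closest, with 125 and 145 CPM in female and 83.5 and 70.7 CPM in male lanes and a log2 difference of -1.07 ± 0.20 (adjusted p = 0.00161). It was past the limit without the female lane of 1868 cells (adjusted p = 2.22e-06) and without the male lane of 2047 cells (adjusted p = 0.000168). Six6 in G had 0.89 ± 0.28 (adjusted p = 0.0428) and Lhx3 0.71 ± 0.30 (adjusted p = 0.13). Six3 in G had 29 UMIs in females and 3 in males, too few for the filter on low counts.

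S showed the opposite order for Six6, with 73.2 and 67.0 CPM in female and 55.2 and 53.5 CPM in male lanes, a log2 difference of -0.42 ± 0.08 (adjusted p = 0.000118), the only call among 4 genes tested, where 10.2% of genes were called. Lhx3 in S, at 4.84, 5.17, 1.97 and 2.31 CPM, had -1.27 ± 0.31 (adjusted p = 0.00293). The Six6 call was lost without the female lane of 1868 cells (adjusted p = 0.00138) and without the male lane of 2085 cells (adjusted p = 0.00211), with DESeq2 (adjusted p = 0.0144) and with library size alone (adjusted p = 0.00114). Prl took 0.144% and 0.140% of S UMIs in females and 0.0282% and 0.0233% in males. In the test of the sex difference in 1 type against the mean of the other 5, Six6 in S (-0.67 ± 0.16, adjusted p = 0.00525), Lhx3 in S (-1.45 ± 0.36, adjusted p = 0.00887) and Lhx3 in FSC (0.71 ± 0.18, adjusted p = 0.0119) came nearest and none passed the limit, so the sex differences of types are not shown to differ.

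C and T gave no call: 0 of 4 genes in C (0 at an unadjusted p below 0.05, 0 with DESeq2), where 0.614% of genes were called, and 0 of 3 in T (0 and 0), where 1.68% were. In C the intervals were narrow for Six6 (0.07 ± 0.10) and Pitx1 (-0.12 ± 0.08) and wide for Lhx3 (-0.03 ± 0.34). In T, with 17 to 26 cells a lane, they were wide for all.

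Partners of these factors were read from 3 lists. Of 10 LIM cofactors and LIM-only genes, 9 were tested in HPC over FSC and 1 was called, Ssbp3, a single-strand DNA binding protein that joins LDB1 complexes, which was lower in HPC (-1.15 ± 0.16, adjusted p = 2.72e-05). Over all genes 26.3% were called, 9.15% higher and 17.2% lower. The list median was -0.25, next to -0.09 over all genes. Of 12 EYA, DACH and Groucho family genes, partners of SIX3 and SIX6 and their relatives, 10 were tested, 3 were called lower and 1 higher, next to 17.2% and 9.15% of all genes, with a median of -0.12. The transcriptional coactivators Eya4 (-6.04 ± 0.60, adjusted p = 1e-06) and Eya1 (-3.44 ± 0.20, adjusted p = 9.47e-10) and the Groucho gene Tle3 (-1.52 ± 0.28, adjusted p = 0.000288), which was named after its value was seen, were lower in HPC, and Dach1, a corepressor, was higher (3.53 ± 0.43, adjusted p = 1.06e-05).

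Of 23 other homeodomain genes, 14 were tested, and 9 were called lower and 1 higher in HPC, next to 17.2% and 9.15% of all genes, with a median of -2.28. Prrx1 (-6.84 ± 0.19, adjusted p = 4.65e-13), a paired-type homeodomain factor, was among those lower in HPC, and Pou1f1 (3.71 ± 0.30, adjusted p = 9.16e-08), the POU factor of S, L and T, was higher. In males over females in L, Lmo2 was lower (-2.91 ± 0.60, adjusted p = 0.00011) and Ssbp2 higher (0.68 ± 0.15, adjusted p = 0.000286) among 8 LIM partners tested, and the Groucho genes Tle3 (1.66 ± 0.39, adjusted p = 0.000615) and Tle4 (0.79 ± 0.13, adjusted p = 2.21e-06) were higher among 5 EYA, DACH and Groucho genes tested. These are 2 of 8 and 2 of 5 genes, next to 17.6% of all genes called, and the list medians were 0.35 and 0.75, next to 0.02 over all genes. With DESeq2 none of the genes of these lists was called in L. Lmo2 is also an endothelial gene, and the 4 EC markers summed to 1.41, 2.87, 1.82 and 3.07 CPM in L. Of 6 other homeodomain genes tested in L, 0 were called by edgeR (4 at an unadjusted p below 0.05, 0 with DESeq2, median 0.15). In G, 0 of 6 LIM partners, 0 of 4 EYA, DACH and Groucho genes and 0 of 4 other homeodomain genes were called by edgeR or DESeq2, with 2, 1 and 2 at an unadjusted p below 0.05 and medians of -0.15, 0.05 and -0.29.

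Genes with the most similar profile were sought by Pearson's r of log2(CPM + 1) over 16 sums, 8 types in 2 pools, which share their libraries, among 12778 genes. Pitx1 was most like Cep170b (r = 0.987), Rsph1 and Fam229b. Pitx3 was most like LOC103692776 (0.935), Tgfbr3l and Bmper, these 3 being highest in G. Lhx3 was most like Celsr2 (0.926), Nsg2 and Spock3. For Lhx4 these were Msx1 (0.917), LOC103693507 and Myh7, and for Six3 Cd24 (0.929), LOC102549836 and Shc3, each highest in FSC. Six6 had lower values, RGD1565002 (0.878), Ppp1r1a and Kcnd3, and Vat1l (0.947) and Rfk were among the 3 genes most like Isl1. Between members, r ran from -0.13 for Pitx3 and Six6 to 0.79 for Pitx1 and Lhx3.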

How the data were processed

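Single cells of dispersed anterior pituitaries were captured on 4 lanes, and the authors aligned and counted reads with Cell Ranger 2.1 after extending the 3′ ends of annotated genes by up to 4 kb. The deposited values are counts of UMIs per gene and cell in a single matrix. Per the study's methods, the lanes were joined with Cell Ranger aggr in mapped normalization mode. Lane totals and depths given here are therefore those after that step. The reference was Rnor6 (NCBI genes with extended 3′ ends, with mitochondrial genes from Ensembl). Lanes were assigned to a sex by the number of cells recovered per lane that the study states. Of 7861 cells, 274 were removed as mitochondrial outliers, 328 as gene or UMI outliers and 188 as doublets (synthetic doublets, 30%), and 207 ambiguous cells, 51 pericytes, 60 melanotrophs and 59 posterior lobe cells were set aside. Types were set by the study's marker genes with Otsu thresholds, and 220 cells were assigned by their 30 nearest neighbours.

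UMIs were summed per type and pool (16 sums) or per type and lane. The main test was edgeR 4.0.16 (quasi-likelihood, TMM, minimum count 10, 2-sided) in R 4.3.3 with Benjamini-Hochberg adjustment over all genes tested and a limit of 0.001. Alternatives were DESeq2 1.42.0, library size alone, no filter, a limit of 0.05, totals without 7 hormone and 4 globin genes, each lane left out, removed cells kept, no assignment by neighbours, corticotrophs by 1 of 3 markers, sums per lane, and erythrocytes included. Scripts were tested on simulated data. FSC were clustered with scanpy 1.11.5 (Leiden resolution 0.2) on Python 3.11.15. Lane depth was 18955509 to 24048021 UMIs; intervals (95%) and floors (3 counts) cover counting error only. Genes named beside the 7 were, per gene, the 3 with the highest correlation among genes with at least 10 CPM in some sum, and up to 2 of each sign past the limit per partner list. The members and lists were chosen with earlier results of these data known. Some genes that this rule names are not reported here.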

Additional observations from a re-analysis of the deposited data

Results flagged for a closer look

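Signal of these genes was found in cells that no comparison above uses, above the limit that a count of 0 allows. The 60 melanotrophs (4 female, 56 male), cells of the intermediate lobe, had 196 CPM of Pitx1, 60.7 CPM of Lhx3, 137 CPM of Six3, 137 CPM of Six6 and 9.66 CPM of Isl1, from 142, 44, 99, 99 and 7 UMIs. The 59 posterior lobe cells (4 female, 55 male) had 42.1 CPM of Pitx1, 16.5 CPM of Lhx3, 6.01 CPM of Lhx4, 198 CPM of Six3, 61.6 CPM of Six6 and 22.6 CPM of Isl1, from 28, 11, 4, 132, 41 and 15 UMIs.

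Doublets and outliers were not removed from the melanotrophs or the posterior lobe cells, and the part of mixed cells was not tested. The 4 FSC markers summed to 167 CPM in melanotrophs and 1600 CPM in posterior lobe cells, against 2970 CPM in FSC. There were 81.8 Six3 UMIs per 100 FSC marker UMIs in melanotrophs and 12.4 in posterior lobe cells, against 4.005 in FSC. Nearly all of these cells came from the male pool, so cell type and pool cannot be told apart for them. No sex difference of a member in 1 type differed from that of the other types past the limit, and groups of 2 lanes are too small to look for a lane that stands apart.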

How the results depend on the processing

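No paired analysis was possible because the cell barcodes carry a lane number but not the replicate number of the labels. The lack of pairs concerns a female and a male lane, whereas the sums of the cell types came from the same pools. Of the log2 differences of members under the alternatives, 450 kept direction and side of the limit, 38 came inside it, 19 fell outside it and 2 turned sign: with library size alone, Pitx1 in HPC over FSC was -0.021 and Lhx3 in males over females in L was 0.47. Over all alternatives, the count of members called ran from 3 to 5 around 4 in HPC over FSC. It ran from 4 to 5 around 4 in pituitary types over Le and EC. In L against the other 5 types it ran from 3 to 4 around 3, and for sex in L from 1 to 3 around 2. The larger moves by setting were as follows. In C the count of 1 became 2 at a limit of 0.05, with no filter and with sums per lane, and 0 with library size alone, and 0 to 1 with a lane left out. In G the count of 2 became 4 at 0.05 and with sums per lane. In S the count of 2 became 4 with DESeq2, no filter and sums per lane. For sex in FSC the count of 2 became 1 with DESeq2 and with removed cells kept, 0 with no filter, and 0 to 2 with a lane left out. For sex in G the count of 0 became 2 at 0.05, 1 with no filter and with removed cells kept, and 0 to 1 with a lane left out. For sex in S the count of 1 became 3 at 0.05, 0 with DESeq2 and library size alone, and 0 to 1 with a lane left out. For sex in L the count of 2 became 1 with DESeq2, and 1 to 2 with a lane left out; Six3 in L had an adjusted p of 0.0226 with DESeq2. Six6 in HPC over FSC, outside the limit, came inside it with library size alone (adjusted p = 0.000477) and with no filter (8.74e-08).

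Counts of all genes called ran from 3362 to 6622 around 3580 in HPC over FSC and from 3456 to 7478 around 4043 in pituitary types over Le and EC. Against the other 5 types they ran from 832 to 3059 around 959 in C, 494 to 1783 around 545 in G, 127 to 999 around 157 in T, 558 to 2968 around 746 in S and 429 to 2352 around 535 in L. For sex they ran from 6 to 1500 around 378 in FSC, 25 to 143 around 61 in C, 207 to 1008 around 306 in G, 13 to 146 around 55 in T, 553 to 3120 around 1212 in S and 691 to 2934 around 1520 in L. The cause of these changes was not tested.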
